A study of Homo sapiens with 32 samples.

Results

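The 10 genes described here encode 5 cargo receptors of selective autophagy (SQSTM1, NBR1, OPTN, TAX1BP1 and CALCOCO2), 4 ATG8 proteins (MAP1LC3B, GABARAP, GABARAPL1 and GABARAPL2) and WIPI1, a protein of the growing autophagosome membrane. They were taken by gene symbol from the 24249 gene IDs of the deposited expression table, and all 10 were found. All 10 were also among the 15827 genes tested, so no member was lost to the filter on low values. RNA was measured in MM.1S, an established line of human myeloma cells, and the comparisons ask how the cells responded to all-trans retinoic acid (ATRA), to carfilzomib (Cfz) and to their combination. Every culture first received a pulse of 1 h, with DMSO or with carfilzomib, and was then grown for 12 h in new medium with DMSO or with 10 µM ATRA. The groups are ATRA (DMSO pulse, then ATRA, 3 libraries), Cfz (carfilzomib pulse, then DMSO, 1 library), ATRA+Cfz (carfilzomib pulse, then ATRA, 1 library) and DMSO (DMSO pulse, then DMSO, 3 libraries). The labels give no carfilzomib dose and do not state if the libraries of a group are separate cultures, so their spread may be technical.

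Selective autophagy degrades chosen cargo in the lysosome. A receptor binds the cargo, often through ubiquitin chains on it, and binds a lipid-linked ATG8 protein on the autophagosome membrane through a short motif, the LC3-interacting region. ATRA is a vitamin A derivative whose receptors are transcription factors. Carfilzomib inhibits the proteasome, the other main route by which ubiquitinated proteins are degraded. Myeloma cells make large amounts of immunoglobulin and depend on both routes.

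Levels are given as FPM, fragments scaled to a fixed total per library and not to gene length, so the level of a member is compared between libraries and not with that of another member. Depth was 14136937 to 17155331 reads per library. The 6 plasma cell markers SDC1, CD38, XBP1, PRDM1, IRF4 and TNFRSF17 were all detected in every library, the lowest value being 39.0 FPM for CD38 with Cfz. Of 10 listed markers of other cell types, 6 were analysed here, and their summed level was 1.60 to 2.14 FPM with ATRA, 5.11 FPM with Cfz, 3.11 FPM with ATRA+Cfz and 2.15 to 2.95 FPM with DMSO. Most of the sum in the Cfz library was EPCAM at 3.34 FPM, and 1 marker was at 0 in each ATRA library (KRT18 in ATRA 1, COL1A1 in ATRA 2 and COL1A2 in ATRA 3). DMSO 3 stood apart from the other controls: the chi-square per degree of freedom over genes was 10.5 and 11.0 against DMSO 1 and DMSO 2, and 1.81 between those. Reads from mitochondrially encoded genes were 5.85% of all reads in DMSO 3, a share that was 3.67% to 3.89% with ATRA, 5.43% with Cfz, 5.72% with ATRA+Cfz, and 4.12% and 4.09% in DMSO 1 and DMSO 2. What these differences contribute to the values below was not tested, but member counts are given with and without DMSO 3. In RNA from a whole culture, fewer cells expressing a gene and less of its RNA per cell cannot be told apart.

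The members are spread over 6 chromosomes. RefSeq promoters (GRCh38.p14, 250 bases before to 50 after a start site) matched 10 of 10 members, with 15 start sites between them. They were searched on both strands for TGACNNNGC, the core of the element bound by the antioxidant factor NRF2. CACGTG and the longer TCACGTGA, which contains it and is bound by TFEB and TFE3, were also searched for. So was AGGTCA, a single unit of the elements that nuclear receptors bind and not a whole element. TGACNNNGC was found in CALCOCO2 and MAP1LC3B, and 13.3% of all 35116 promoters hold it. AGGTCA was found at the first listed SQSTM1 start site, and 13.8% of all promoters hold it. Neither CACGTG, held by 7.26% of all promoters, nor TCACGTGA, held by 0.98%, was in any of the 15 windows, which says only that these letters are not in them. A further motif, TGACGTCA, the cyclic AMP response element bound by factors of the CREB and ATF families, was added after the sequences were seen. It stands in the GABARAPL1 promoter 30 bases before the start site, and 1.85% of all promoters hold it. Shown here are promoters of SQSTM1 and GABARAPL1, the members that moved most, and of the members with a TGACNNNGC match, 5′ to 3′ from the plus strand with the matches in capitals. They are SQSTM1 at its first start site (chr5:179806143-179806442, where the reverse complement of AGGTCA is marked) and at its last (chr5:179820655-179820954, no match), GABARAPL1 (chr12:10212627-10212926), CALCOCO2 (chr17:48830785-48831084, where TGACNNNGC reads on the minus strand) and MAP1LC3B (chr16:87392086-87392385). A match is a description of letters and not a bound site.
SQSTM1, first start site: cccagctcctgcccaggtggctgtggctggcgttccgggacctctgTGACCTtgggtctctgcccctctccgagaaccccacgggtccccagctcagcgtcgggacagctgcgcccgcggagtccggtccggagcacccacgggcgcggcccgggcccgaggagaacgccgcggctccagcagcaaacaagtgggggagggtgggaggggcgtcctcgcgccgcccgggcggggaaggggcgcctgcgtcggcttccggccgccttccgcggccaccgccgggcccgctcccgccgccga
SQSTM1, last start site: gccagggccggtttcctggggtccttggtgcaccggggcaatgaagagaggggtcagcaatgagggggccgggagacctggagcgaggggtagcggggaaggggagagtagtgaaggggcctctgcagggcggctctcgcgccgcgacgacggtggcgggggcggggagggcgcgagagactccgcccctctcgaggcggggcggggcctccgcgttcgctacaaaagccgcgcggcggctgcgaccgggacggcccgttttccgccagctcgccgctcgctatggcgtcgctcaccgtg
GABARAPL1: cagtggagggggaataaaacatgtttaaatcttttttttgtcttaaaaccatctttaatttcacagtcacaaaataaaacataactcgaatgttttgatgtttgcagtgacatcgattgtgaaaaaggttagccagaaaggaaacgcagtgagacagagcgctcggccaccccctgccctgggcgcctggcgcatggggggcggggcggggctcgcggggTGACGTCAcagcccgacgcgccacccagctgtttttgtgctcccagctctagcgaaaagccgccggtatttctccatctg
CALCOCO2: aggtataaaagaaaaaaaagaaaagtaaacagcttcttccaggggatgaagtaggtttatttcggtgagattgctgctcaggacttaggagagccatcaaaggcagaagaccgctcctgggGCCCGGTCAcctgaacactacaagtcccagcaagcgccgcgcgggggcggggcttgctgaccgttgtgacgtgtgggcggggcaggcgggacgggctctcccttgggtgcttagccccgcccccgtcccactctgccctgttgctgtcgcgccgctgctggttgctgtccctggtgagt
MAP1LC3B: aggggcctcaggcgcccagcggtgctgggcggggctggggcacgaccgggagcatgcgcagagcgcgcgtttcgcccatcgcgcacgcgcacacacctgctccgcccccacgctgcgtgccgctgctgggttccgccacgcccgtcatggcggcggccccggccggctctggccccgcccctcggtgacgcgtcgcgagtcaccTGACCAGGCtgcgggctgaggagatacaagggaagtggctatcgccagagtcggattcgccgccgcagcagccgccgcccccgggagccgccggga

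Relative to DMSO, 8 of the 10 members were higher with ATRA, where 21.3% of all genes tested were higher and 27.4% lower. With Cfz 5 members were higher, where 7.94% of all genes were higher and 17.0% lower. SQSTM1 and GABARAPL1 moved most with either drug and were highest with both. CALCOCO2 was raised with carfilzomib and did not pass the test with ATRA alone, whereas NBR1, OPTN, GABARAPL2 and WIPI1 passed it with ATRA and not with carfilzomib alone. The ATRA and Cfz effects were not tested against each other. GABARAP stayed between 96.4 and 110.1 FPM in all 8 libraries. The tests are limma fits over all 15827 genes, and an adjusted p is Benjamini-Hochberg adjusted with a threshold of 0.05. The limma fold changes were computed after adding 0.5 FPM, on the log2 scale, so those of low genes are understated. Linear ratios to the DMSO mean, and the sums and products of the drugs, were computed from FPM without that addition. The edgeR and DESeq2 values were computed from reads.

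**Figure D1:**
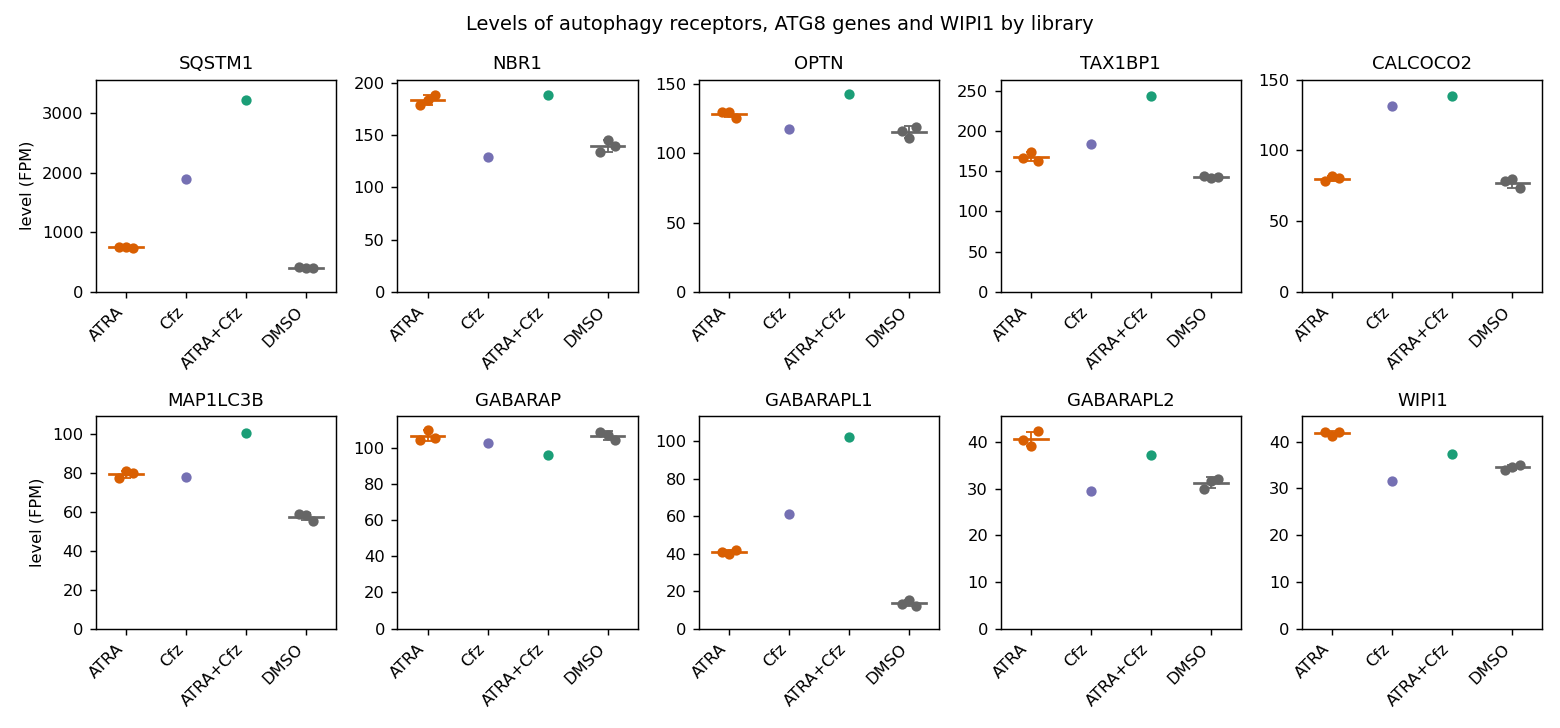
Level in FPM (vertical axes, each from 0) of the 10 members by treatment (horizontal axes); points are libraries, and lines with bars are the mean and SD of the 3 ATRA or 3 DMSO libraries. The ATRA+Cfz point is the highest for SQSTM1 and GABARAPL1, and the GABARAP values lie between 96.4 and 110.1 FPM.

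SQSTM1 (ENSG00000161011, chr5:179806398-179838078 on the plus strand of GRCh38) encodes p62, which binds ubiquitinated proteins, gathers them into condensates and also binds KEAP1, the inhibitor of NRF2. Its level was 755.3, 747.2 and 741.2 FPM with ATRA, 1894 FPM with Cfz, 3214 FPM with ATRA+Cfz, and 414.9, 401.1 and 406.4 FPM with DMSO. Every ATRA library lay above every DMSO library, and the Cfz and ATRA+Cfz libraries lay far above both groups. The mean with ATRA was 747.9 ± 7.03 FPM and that with DMSO 407.5 ± 6.93 FPM (SD, n = 3 each), a log2 fold change of 0.88 ± 0.03 (SE, limma, adjusted p = 2.6e-09). Against DMSO the log2 fold change was 2.22 ± 0.05 with Cfz (SE, limma, adjusted p = 3.2e-10) and 2.98 ± 0.05 with ATRA+Cfz (SE, limma, adjusted p = 3.9e-12). The Cfz library held 28881 reads of SQSTM1 and its 4 lanes gave 1874 to 1930 FPM, so counting error is small beside these differences. In linear terms the level was 1.84 times the DMSO mean with ATRA, 4.65 times with Cfz and 7.89 times with ATRA+Cfz. The first of the SQSTM1 promoters shown above holds AGGTCA, a single unit and not a whole nuclear receptor element. The windows at the other SQSTM1 start sites do not hold it. Levels are per gene, so they do not tell which start site was used. The values do not bear on whether that unit is bound.

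The lone Cfz and ATRA+Cfz libraries have no replicate check. Their tests assume that such libraries vary like the DMSO and ATRA libraries do, so each p-value for them rests on that assumption, and the 95% Poisson intervals given for them cover counting error only. An additive model, which uses both libraries with carfilzomib against the 6 without it and takes ATRA as a term, gave a carfilzomib log2 effect of 2.16 ± 0.05 for SQSTM1 (SE, limma, adjusted p = 1.1e-11).

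NBR1 (ENSG00000188554, chr17:43170481-43211689, plus strand), a receptor that cooperates with p62 in gathering ubiquitinated proteins, was higher with ATRA and did not pass the test with carfilzomib alone. Its level was 178.3, 183.8 and 188.2 FPM with ATRA, 128.6 FPM with Cfz, 188.2 FPM with ATRA+Cfz, and 133.8, 145.3 and 139.8 FPM with DMSO. All 4 libraries with ATRA lay above the 4 without it, and the lone Cfz library lay below every DMSO library. The log2 fold change was 0.39 ± 0.04 with ATRA against DMSO (SE, limma, adjusted p = 8.5e-06) and 0.55 ± 0.07 with ATRA+Cfz against Cfz (SE, limma, adjusted p = 1.3e-04). With Cfz against DMSO it was -0.12, with a 95% interval of -0.24 to 0.01, which did not pass the test (limma, adjusted p = 0.16).

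OPTN (ENSG00000123240, chr10:13099449-13138308, plus strand) encodes optineurin, a receptor for mitochondria and bacteria that the kinase TBK1 phosphorylates. Its level was 129.7, 129.6 and 125.7 FPM with ATRA, 117.2 FPM with Cfz, 142.8 FPM with ATRA+Cfz, and 116.1, 110.7 and 119.0 FPM with DMSO. The ATRA libraries lay above the DMSO libraries by a small margin, and the Cfz library lay inside the DMSO range. The rise with ATRA against DMSO was 0.15 ± 0.04 on the log2 scale (SE, limma, adjusted p = 0.0061), and that with ATRA+Cfz against DMSO 0.31 ± 0.06 (SE, limma, adjusted p = 6.1e-04).

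TAX1BP1 (ENSG00000106052, chr7:27739331-27844564, plus strand), a receptor for protein aggregates and ubiquitin-coated cargo, rose with each drug. Its level was 166.8, 174.3 and 162.9 FPM with ATRA, 183.6 FPM with Cfz, 243.9 FPM with ATRA+Cfz, and 143.7, 142.2 and 143.5 FPM with DMSO. No treated library overlapped the DMSO range. The log2 fold change against DMSO was 0.23 ± 0.04 with ATRA (SE, limma, adjusted p = 2.4e-04), 0.36 ± 0.05 with Cfz (SE, limma, adjusted p = 5.3e-04) and 0.77 ± 0.05 with ATRA+Cfz (SE, limma, adjusted p = 2.4e-07).

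CALCOCO2 (ENSG00000136436, chr17:48830988-48866522, plus strand) encodes NDP52, a receptor for invading bacteria and mitochondria. Its level was 78.2, 81.8 and 80.3 FPM with ATRA, 131.6 FPM with Cfz, 138.3 FPM with ATRA+Cfz, and 78.4, 79.8 and 73.3 FPM with DMSO. The ATRA and DMSO libraries overlapped, while both libraries with carfilzomib stood well above them. The log2 fold change against DMSO was 0.77 ± 0.06 with Cfz (SE, limma, adjusted p = 9.4e-06) and 0.05 with ATRA, where the 95% interval was -0.04 to 0.15 (limma, adjusted p = 0.33). After the carfilzomib pulse, ATRA+Cfz against Cfz gave 0.07, with a 95% interval of -0.09 to 0.24 (limma, adjusted p = 0.52). The CALCOCO2 promoter shown above holds a TGACNNNGC match, as do 13.3% of all promoters. The windows of SQSTM1, GABARAPL1 and TAX1BP1, also higher with Cfz, hold none. A link between the match and the levels was not tested.

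Over the 5 receptors, the summed level was 1298 to 1317 FPM with ATRA, 2455 FPM with Cfz, 3927 FPM with ATRA+Cfz and 879.1 to 886.8 FPM with DMSO. SQSTM1 made up 56.7% to 57.7% of these reads with ATRA, 77.2% with Cfz, 81.8% with ATRA+Cfz and 45.6% to 46.8% with DMSO. The shares are of reads, which grow with transcript length, so they describe the shift of the mixture between libraries and not the amounts of the 5 RNAs relative to each other.

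The ATG8 proteins are the ubiquitin-like tags that are joined to lipid on the autophagosome membrane. MAP1LC3B (ENSG00000140941, chr16:87383995-87404779, plus strand) encodes LC3B, whose lipid-linked form is the usual marker of autophagosomes. Its level was 77.3, 80.9 and 79.8 FPM with ATRA, 78.1 FPM with Cfz, 100.6 FPM with ATRA+Cfz, and 58.7, 58.5 and 55.5 FPM with DMSO. The Cfz library lay within the ATRA range, and all treated libraries lay above the controls. The log2 fold change against DMSO was 0.46 ± 0.04 with ATRA (SE, limma, adjusted p = 3.3e-06), 0.44 ± 0.06 with Cfz (SE, limma, adjusted p = 4.0e-04) and 0.80 ± 0.06 with ATRA+Cfz (SE, limma, adjusted p = 5.7e-07). Its near-identical copy MAP1LC3B2 was at 0 to 0.277 FPM in the 8 libraries, at or near the floor of 3 reads per library (0.175 to 0.212 FPM), so few reads were assigned to that copy.

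GABARAPL1 (ENSG00000139112, chr12:10212458-10223130, plus strand), an ATG8 protein of the GABARAP branch, had the largest ATRA log2 fold change of the 10 members. Its level was 41.0, 39.8 and 41.8 FPM with ATRA, 61.0 FPM with Cfz, 102.3 FPM with ATRA+Cfz, and 13.2, 15.4 and 12.1 FPM with DMSO. The 4 treatments did not overlap. The mean was 40.9 ± 0.986 FPM with ATRA and 13.6 ± 1.73 FPM with DMSO (SD, n = 3 each), a log2 fold change of 1.56 ± 0.08 (SE, limma, adjusted p = 2.9e-08). Against DMSO the log2 fold change was 2.14 ± 0.11 with Cfz (SE, limma, adjusted p = 4.6e-07) and 2.88 ± 0.11 with ATRA+Cfz (SE, limma, adjusted p = 4.6e-09). The additive model gave a smaller carfilzomib effect of 1.73 ± 0.14 (SE, limma, adjusted p = 1.9e-06). That model assumes no interaction, and GABARAPL1 is the member whose interaction passed the test described below. Its 1.73 lies between unlike effects, 2.14 with Cfz against DMSO and 1.31 with ATRA+Cfz against ATRA. Counting error left the Cfz level at 57.1 to 65.1 FPM and the ATRA+Cfz level at 97.1 to 107.7 FPM (95% Poisson intervals from 930 and 1446 reads). The promoter shown above for this gene holds TGACGTCA, a motif that was added after the sequences were seen. Its presence here was therefore known before the search. The 1.85% of all promoters that hold it is a description and no test of rarity.

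GABARAPL2 (ENSG00000034713, chr16:75566351-75577881, plus strand) encodes the related ATG8 protein also known as GATE-16. Its level was 40.4, 39.3 and 42.3 FPM with ATRA, 29.6 FPM with Cfz, 37.2 FPM with ATRA+Cfz, and 30.0, 31.8 and 32.2 FPM with DMSO. Every library with ATRA lay above every library without it. The rise with ATRA against DMSO was 0.37 ± 0.05 on the log2 scale (SE, limma, adjusted p = 1.3e-04), and Cfz against DMSO gave -0.08 with a 95% interval of -0.25 to 0.09 (limma, adjusted p = 0.49). ATRA+Cfz against Cfz gave 0.33 ± 0.09 (SE, limma, adjusted p = 0.021), a call that DESeq2 did not make (adjusted p = 0.15).

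GABARAP (ENSG00000170296, chr17:7240014-7242770, minus strand) encodes the founding protein of that branch. Its level was 104.4, 110.1 and 105.5 FPM with ATRA, 102.5 FPM with Cfz, 96.4 FPM with ATRA+Cfz, and 109.0, 107.1 and 104.3 FPM with DMSO. The ATRA and DMSO libraries overlapped, and the ATRA+Cfz library was the lowest of the 8. ATRA against DMSO had a 95% interval of -0.09 to 0.08 on the log2 scale (limma, adjusted p = 0.98). With ATRA+Cfz the value fell by 0.15 ± 0.05 against DMSO (SE, limma, adjusted p = 0.042), a call lost under 9 of 14 alternatives, over which the adjusted p ran from 0.0067 to 0.53.

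The mixture of ATG8 reads shifted towards GABARAPL1. It made up 14.7% to 15.6% of the reads of the 4 ATG8 members with ATRA, 22.5% with Cfz, 30.4% with ATRA+Cfz and 5.91% to 7.26% with DMSO. The share of GABARAP was 39.2% to 40.8% with ATRA, 37.8% with Cfz, 28.6% with ATRA+Cfz and 50.3% to 51.7% with DMSO. MAP1LC3B stayed at 27.2% to 29.9% in all libraries. The summed level of the 4 was 263.1 to 270.1 FPM with ATRA, 271.2 FPM with Cfz, 336.4 FPM with ATRA+Cfz and 204.0 to 212.8 FPM with DMSO. The summed reads of the ATRA libraries and of the lone Cfz library were thus close, with different mixtures. Like those of the receptors, these sums and shares are of reads, which grow with transcript length. They do not give the amount of ATG8 RNA. Of 4 further ATG8 genes, MAP1LC3B2 is described above and the others were not analysed here.

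**Figure D2:**
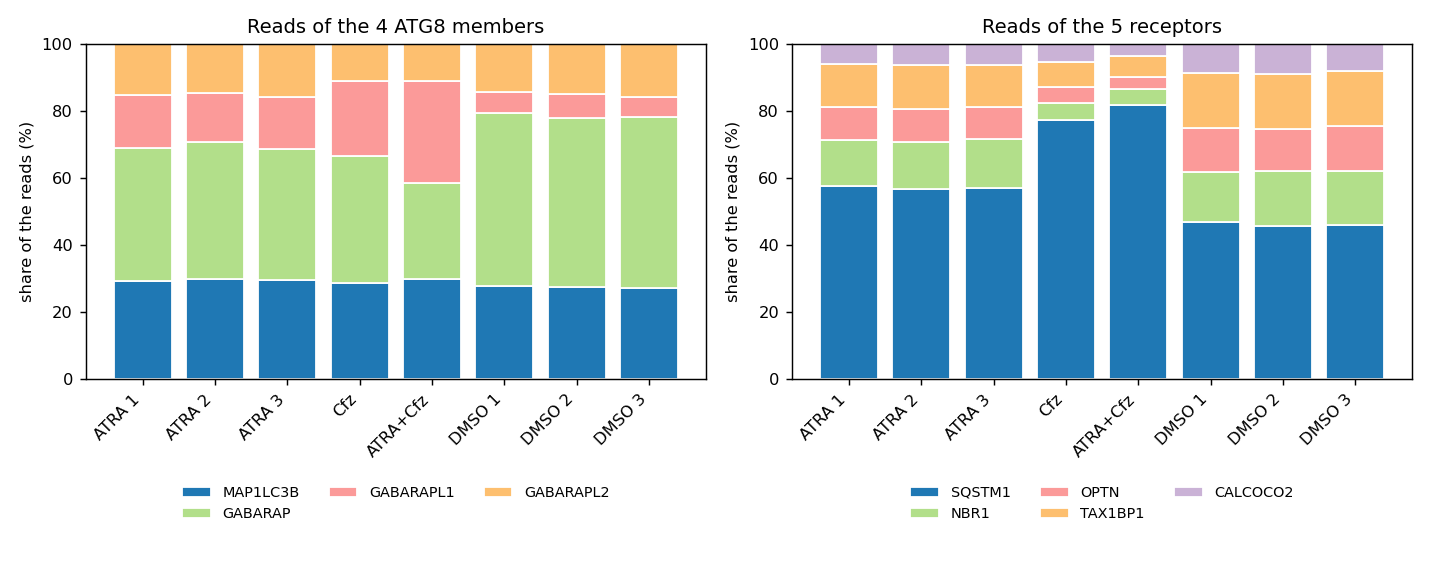
Share of reads in percent (vertical axes) that each gene took within the 4 ATG8 members and within the 5 receptors, by library (horizontal axes). GABARAPL1 took 30.4% of the ATG8 reads with ATRA+Cfz and 5.91% to 7.26% with DMSO, and SQSTM1 took 81.8% of the receptor reads with ATRA+Cfz and 45.6% to 46.8% with DMSO.

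WIPI1 (ENSG00000070540, chr17:68420948-68457513, minus strand) binds phosphatidylinositol 3-phosphate on the membrane that becomes the autophagosome. Its level was 42.1, 41.2 and 42.1 FPM with ATRA, 31.7 FPM with Cfz, 37.3 FPM with ATRA+Cfz, and 33.9, 34.7 and 34.9 FPM with DMSO. The ATRA libraries formed a tight group above all others, and the Cfz library was the lowest. The rise with ATRA against DMSO was 0.27 ± 0.05 on the log2 scale (SE, limma, adjusted p = 5.1e-04). ATRA+Cfz against Cfz gave 0.23 ± 0.08 (SE, limma, adjusted p = 0.051), on the edge of the threshold. That difference passed it with edgeR (adjusted p = 0.039), while the adjusted p over the 14 alternatives ran from 0.024 to 0.31.

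For ATRA against DMSO, 8 members were higher and 0 lower, where 21.3% of all genes tested were higher and 27.4% lower. In each of the 8, the ATRA libraries also lay above the DMSO libraries. That restates the calls, which rest on the same libraries, and adds no further support. The share of all genes with that property was not computed, so it is not read as a trait of the members. At an unadjusted p under 0.05, 0 members were lower, and edgeR and DESeq2 also gave 8 higher and 0 lower. The median log2 fold change was 0.32 over the members and -0.03 over all genes. The smallest passing change was that of OPTN (0.15) and the largest that of GABARAPL1 (1.56).

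For Cfz against DMSO, 5 members were higher and 0 lower (0 also at an unadjusted p under 0.05 and with edgeR or DESeq2), where 7.94% of all genes tested were higher and 17.0% lower. The median log2 fold change was 0.19 over the members and -0.08 over all genes. The 5 were SQSTM1, GABARAPL1, CALCOCO2, MAP1LC3B and TAX1BP1, and the additive model called 5 members too. Of all calls in this comparison 31.8% were higher, a share that was 47.8% with median-ratio scaling, 42.2% with edgeR and 53.1% with DESeq2, and the 5 members were called higher under each.

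**Figure D3:**
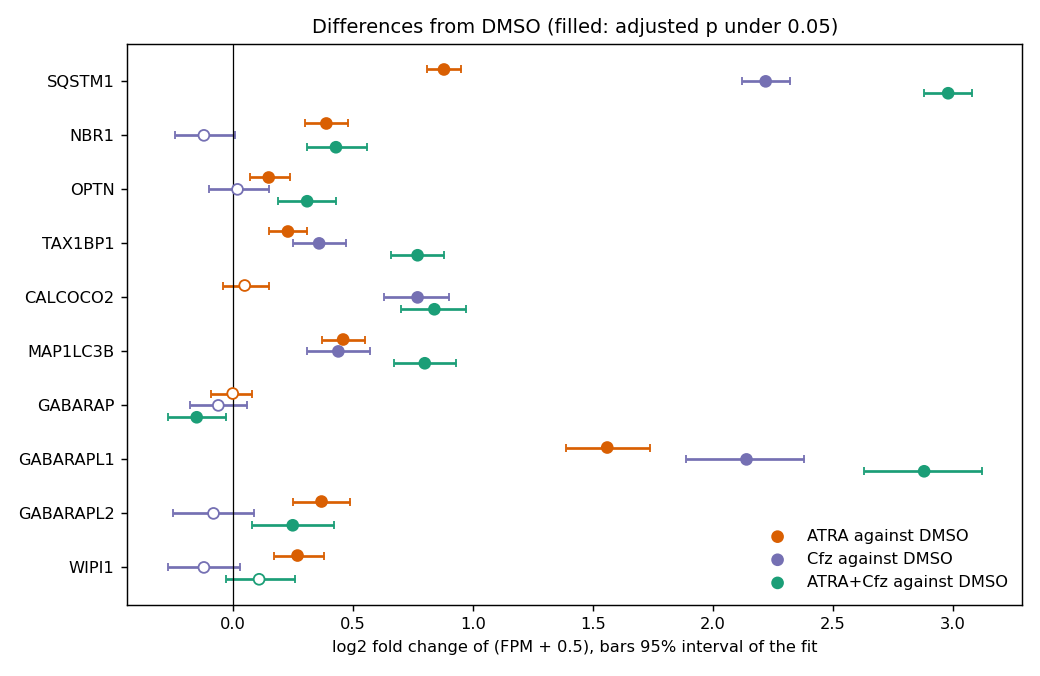
Log2 fold change of FPM + 0.5 against DMSO (horizontal axis) for the 10 members (vertical axis) with ATRA, Cfz and ATRA+Cfz; bars are 95% intervals of the limma fit and filled points passed an adjusted p of 0.05. SQSTM1 reaches 2.98 and GABARAPL1 2.88 with ATRA+Cfz, while NBR1, OPTN, GABARAPL2 and WIPI1 pass with ATRA and not with Cfz.

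For ATRA+Cfz against DMSO, 8 members were higher and 1, GABARAP, was lower, where 20.0% of all genes tested were higher and 30.5% lower. All 5 receptors were among the 8. The median log2 fold change was 0.60 over the members and -0.05 over all genes. WIPI1 was the member that did not pass (0.11, 95% interval -0.03 to 0.26, limma, adjusted p = 0.19), and edgeR called it higher (adjusted p = 0.045).

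The ATRA comparison could also be made after the pulse, with ATRA+Cfz against Cfz, 1 library against 1. The levels compared share no library with ATRA against DMSO. The spread used in its tests comes from the DMSO and ATRA libraries, so these tests are not independent of ATRA against DMSO. There 7 members were higher and 0 lower, where 12.8% of all genes tested were higher and 17.6% lower. At an unadjusted p under 0.05, 8 members were higher and 0 lower, while edgeR gave 8 and DESeq2 6 higher, both with 0 lower. The median log2 fold change was 0.35 over the members. SQSTM1 had 0.76 ± 0.06 (SE, limma, adjusted p = 2.0e-06) and GABARAPL1 0.74 ± 0.14 (SE, limma, adjusted p = 0.0017).

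The carfilzomib comparison under ATRA, ATRA+Cfz against ATRA, gave 5 members higher and 0 lower, where 10.6% of all genes tested were higher and 20.2% lower. At an unadjusted p under 0.05, 2 members were lower, GABARAP and WIPI1, and edgeR and DESeq2 gave 0 lower. SQSTM1 had 2.10 ± 0.05 (SE, limma, adjusted p = 5.8e-10), GABARAPL1 1.31 ± 0.11 (SE, limma, adjusted p = 1.6e-05) and CALCOCO2 0.78 ± 0.06 (SE, limma, adjusted p = 9.5e-06). OPTN, at 0.15 ± 0.06, was just short of the threshold (limma, adjusted p = 0.055), and its adjusted p over the 14 alternatives ran from 0.0076 to 0.14. Of all calls, 34.4% were higher, and 45.3% with edgeR. Without DMSO 3, more genes passed overall. For ATRA against DMSO 8 members were then higher and 0 lower (22.3% and 29.6% of all genes tested). For Cfz against DMSO 5 were higher and 0 lower (10.6% and 23.8% of all genes). For ATRA+Cfz against DMSO 8 were higher and 1 lower (22.2% and 33.3% of all genes). For ATRA+Cfz against Cfz 8 were higher and 0 lower (17.8% and 21.9% of all genes). For ATRA+Cfz against ATRA 6 were higher and 1, GABARAP, was lower (14.5% and 25.9% of all genes), GABARAP having a log2 value of -0.15 (limma, adjusted p = 0.014).

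The interaction is the ATRA effect after carfilzomib minus the ATRA effect without it, on the log2 scale, so 0 means that the folds of the drugs multiply. GABARAPL1 was the only member that passed, at -0.82 ± 0.16 with a 95% interval of -1.17 to -0.48 (SE, limma, adjusted p = 0.026). Of the 10 members 1 was lower and 0 were higher, where 1.31% of all genes tested were lower and 0.992% higher. At an unadjusted p under 0.05, TAX1BP1 was also higher (0.18 ± 0.07, SE, limma, adjusted p = 0.22), and edgeR and DESeq2 gave 1 lower and 0 higher. The GABARAPL1 call was lost without any 1 of the ATRA libraries, with values of -0.81 to -0.84 and an adjusted p of 0.077 to 0.091, and was kept without DMSO 3. Over the 14 alternatives, the value ran from -0.92 to -0.75.

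The interaction depends on the scale on which the drugs are combined. For GABARAPL1 the measured 102.3 FPM with ATRA+Cfz compares with 88.4 FPM if the differences of the drugs from the DMSO mean add and with 184.1 FPM if their folds multiply. The measured value was nearer to the sum. For SQSTM1 the measured 3214 FPM compares with 2235 FPM for the sum and 3477 FPM for the product, and it was nearer to the product. In FPM, ATRA added 1320 to SQSTM1 after carfilzomib and 340.4 without it, and 41.2 to GABARAPL1 after carfilzomib and 27.3 without it. For TAX1BP1 the measured 243.9 FPM lay above both the sum (208.5 FPM) and the product (215.5 FPM). Those expectations carry the error of every library used and were not tested on the linear scale.

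**Figure D4:**
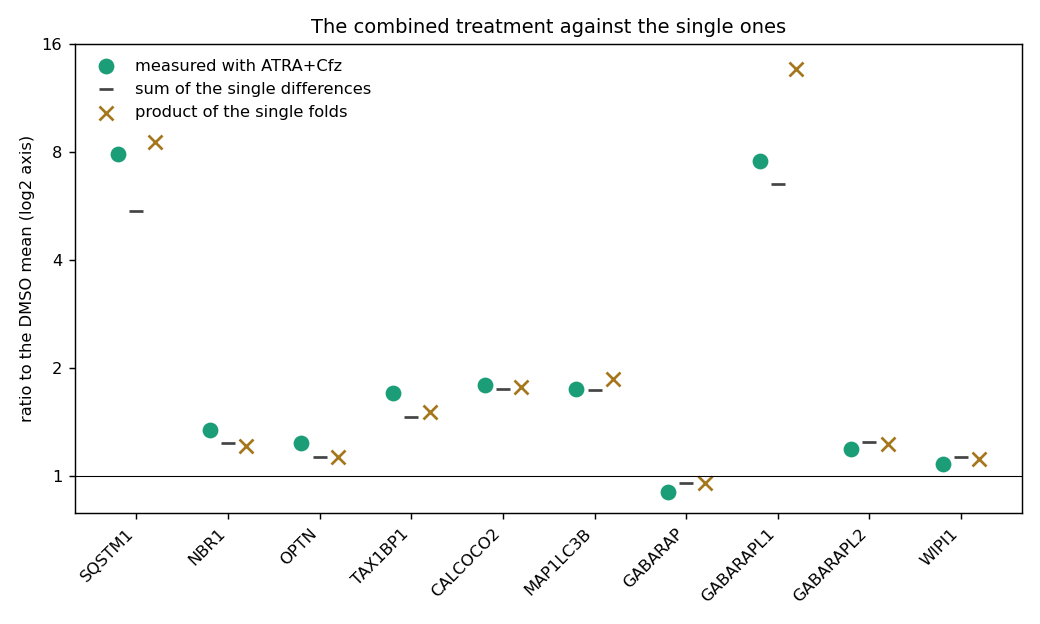
Ratio to the DMSO mean (vertical axis, log2 scale) measured with ATRA+Cfz, beside the sum of the differences and the product of the folds of the drugs given alone, for the 10 members (horizontal axis). GABARAPL1 was measured at 7.55 times DMSO with a product of 13.6, and SQSTM1 at 7.89 times with a product of 8.53.

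The other genes of the pathway were read from 8 lists of 74 genes, of which 70 were tested. For ATRA against DMSO 34 of the 70 were higher and 15 lower, with a median log2 fold change of 0.13, and the shares over all genes tested were 21.3% higher and 27.4% lower. For Cfz against DMSO 11 were higher and 7 lower, with a median of 0.00, and the shares over all genes tested were 7.94% higher and 17.0% lower. The count lower was 14 without DMSO 3, 4 without DMSO 1, 4 without ATRA 2, 3 with median-ratio scaling, 4 with edgeR and 1 with DESeq2. For ATRA+Cfz against DMSO 27 were higher and 15 lower, with 20.0% and 30.5% over all genes tested. The counts of the single lists below are small and are to be read against the same shares.

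The ULK complex starts autophagosome formation. Of its 6 listed genes, 4 rose with ATRA, and 1 rose and 1 fell with Cfz. ULK1, its kinase, was at 21.6 to 22.4 FPM with ATRA and 9.83 to 13.0 FPM with DMSO (log2 fold change 0.89 ± 0.10, SE, limma, adjusted p = 1.6e-05). ULK2, the related kinase, was at 7.40 FPM with Cfz and 11.1 to 12.4 FPM with DMSO (-0.64 ± 0.13, SE, limma, adjusted p = 0.0041).

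The class III phosphatidylinositol 3-kinase makes the lipid that WIPI1 binds. Of its 7 listed genes, 2 rose and 2 fell with ATRA, and 0 passed with Cfz (1 at an unadjusted p under 0.05 with limma, 0 with edgeR and 0 with DESeq2). UVRAG, a subunit of 1 form of the complex, was lower with ATRA at -0.73 ± 0.07 (SE, limma, adjusted p = 4.5e-06), and PIK3R4, the regulatory subunit of the complex, had -0.22 ± 0.08 with Cfz (SE, limma, adjusted p = 0.052). Of 9 genes of ATG9, ATG2, VMP1, TMEM41B and proteins that bind the same lipid, 7 rose with ATRA and 1 with Cfz. The lipid transfer protein gene ATG2A rose with ATRA by 0.84 ± 0.05 (SE, limma, adjusted p = 1.2e-07), and the scramblase gene VMP1 with Cfz by 0.50 ± 0.05 (SE, limma, adjusted p = 6.1e-05).

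The conjugation enzymes and ATG4 proteases prepare ATG8 proteins and join them to lipid. Of 11 genes, 4 rose and 1 fell with ATRA, and 1 rose with Cfz. ATG7, the activating enzyme, rose with ATRA by 0.65 ± 0.07 (SE, limma, adjusted p = 1.9e-05). ATG4A, a protease that trims ATG8 proteins of the GABARAP branch, was at 50.0 FPM with Cfz, 63.9 FPM with ATRA+Cfz and 30.9 to 34.0 FPM with DMSO, and rose with Cfz by 0.64 ± 0.07 (SE, limma, adjusted p = 1.4e-04).

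Of 17 other cargo receptors and adaptors, 7 rose and 7 fell with ATRA, and 3 rose and 4 fell with Cfz, where 21.3% of all genes tested rose and 27.4% fell with ATRA, and 7.94% rose and 17.0% fell with Cfz. RETREG1, an endoplasmic reticulum receptor also called FAM134B, had -0.93 ± 0.21 with ATRA (SE, limma, adjusted p = 0.0033) and -0.95 ± 0.30 with Cfz (SE, limma). Its level was low, at 2.48 to 4.16 FPM with ATRA and 3.02 FPM in the lone Cfz library. The controls were scattered, at 6.47 FPM in DMSO 1, 4.7 FPM in DMSO 2 and 8.17 FPM in DMSO 3. CCPG1, another receptor of the endoplasmic reticulum and named here after its values were seen, was at 277 to 287 FPM with ATRA, 295 FPM with Cfz, 478 FPM with ATRA+Cfz and 151 to 180 FPM with DMSO. Of 9 genes of autophagosome fusion, 4 rose and 1 fell with ATRA and 0 passed with Cfz (1 at an unadjusted p under 0.05 with limma, 0 with edgeR and 0 with DESeq2). TECPR1, which tethers autophagosomes and lysosomes, rose with ATRA by 0.98 ± 0.06 (SE, limma, adjusted p = 1.5e-07), and EPG5, another tether, had -0.15 ± 0.07 with Cfz (SE, limma, adjusted p = 0.15).

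Of 11 regulators and receptor kinases, 6 rose and 4 fell with ATRA, and 5 rose and 2 fell with Cfz. FOXO1, a transcription factor with autophagy genes among its targets, fell with ATRA by 0.56 on the log2 scale (-0.56 ± 0.08, SE, limma, adjusted p = 1.7e-04). TBK1, the kinase of optineurin and p62, was at 118 to 121 FPM with ATRA, 152 FPM with Cfz, 192 FPM with ATRA+Cfz and 97.3 to 99.9 FPM with DMSO. It rose with Cfz by 0.63 ± 0.05 (SE, limma, adjusted p = 8.6e-06) and with ATRA by 0.28 ± 0.03 (SE, limma, adjusted p = 3.8e-05). NFE2L2, which encodes NRF2 and was named after its values were seen, had 0.13 ± 0.04 with ATRA (SE, limma, adjusted p = 0.023). In the lone Cfz library it had 0.50 ± 0.06 (SE, limma). KEAP1, TFE3 and TFEB, also named after their values were seen, had 0.45, 0.14 and -0.46 with ATRA. With Cfz the values of these 3 genes were 0.39, 0.56 and 0.00.

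**Figure D5:**
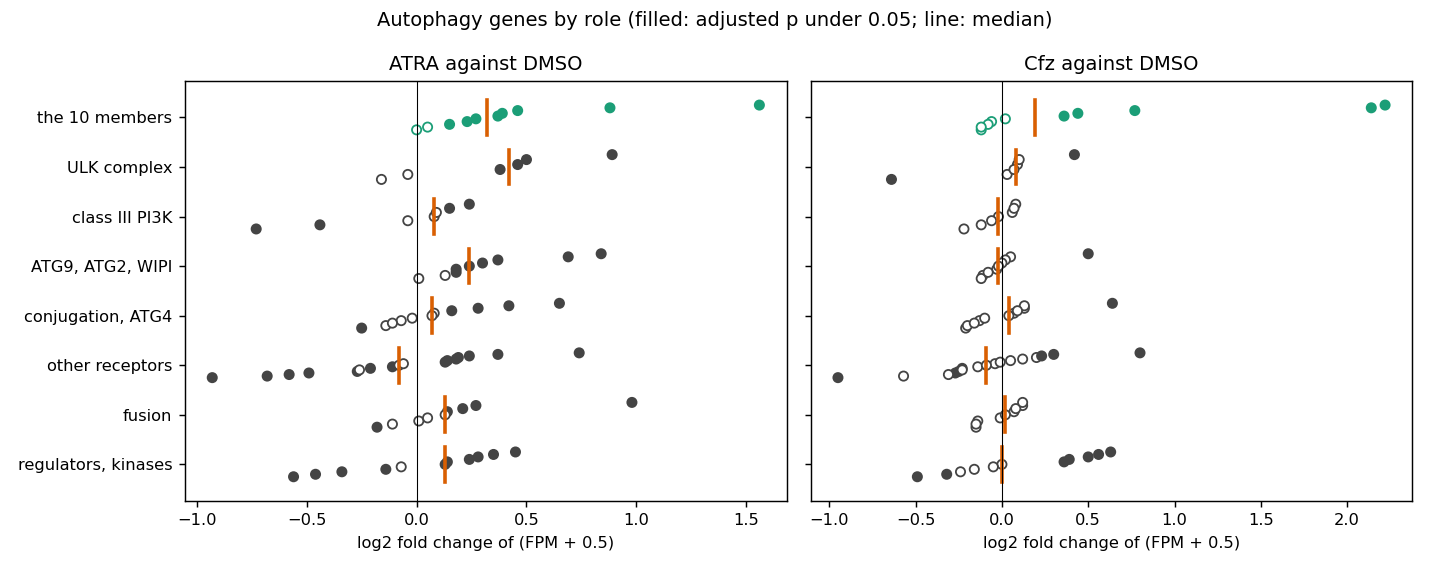
Log2 fold change of FPM + 0.5 (horizontal axes) with ATRA and with Cfz against DMSO for the 10 members and for the tested genes of 7 lists by role (vertical axis); filled points passed an adjusted p of 0.05 and orange lines are medians. The median of the members is 0.32 with ATRA and 0.19 with Cfz, and that of the other receptors is -0.08 and -0.09.

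The genes most like SQSTM1 over the 8 libraries, by Pearson r of log2(FPM + 0.5) among 10530 candidates, were PSMD12 (r = 0.9964), BRF2 (r = 0.9955) and TBK1 (r = 0.9954). PSMD12, a subunit of the proteasome's regulatory particle, was at 172 to 181 FPM with ATRA, 256 FPM with Cfz, 295 FPM with ATRA+Cfz and 138 to 141 FPM with DMSO. The genes most like GABARAPL1 were AIM2 (r = 0.9975), TXNRD1 (r = 0.9969) and AL365181.3 (r = 0.9965). AIM2, a sensor of cytosolic DNA, was at 45.5 to 47.6 FPM with ATRA, 61.0 FPM with Cfz, 100.0 FPM with ATRA+Cfz and 16.6 to 21.2 FPM with DMSO. TXNRD1, a thioredoxin reductase, was at 523 to 529 FPM with ATRA, 602 FPM with Cfz, 733 FPM with ATRA+Cfz and 333 to 372 FPM with DMSO. The 8 points are only 4 treatments, and such r values describe the order and spacing of those treatments.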

How the data were processed

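Total RNA of MM.1S cells was sequenced as 8 libraries, each on 4 lanes that GEO lists as separate samples. The tools named in the submitters' processing notes are fastp (0.20.0), kallisto (0.46.2) and DESeq2 with no version. Build, annotation and strand setting were not given in the sources used here, so overlapping genes on opposite strands may share reads. The table that the authors deposited holds FPM (the CPM unit) for 24249 gene IDs in 32 columns, 1 per lane, each with the same total. The number of columns not used is 0. Whole reads were recovered for 100% of values within 0.01 read, and 4 lanes of a library were averaged and counted once.

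Lanes of a library did not differ beyond sampling noise for any member (lowest adjusted p = 0.619). The floor of 3 reads was 0.175 to 0.212 FPM, and intervals cover counting error only. limma 3.58.1 in R 4.3.3 was run with an intensity trend on log2(FPM + 0.5), over the 15827 genes whose 4 group means averaged at least 0.5 FPM. It had 4 residual and 7.21 prior degrees of freedom, all from the DMSO and ATRA libraries. Alternatives were pseudocounts of 0.1 and 1 FPM, no filter, a filter at 2 FPM, median-ratio scaling, robust empirical Bayes, edgeR 4.0.16 and DESeq2 1.42.0 on the recovered reads, leaving out each DMSO or ATRA library, a block on the library number, only the 6 DMSO and ATRA libraries, and an additive model. The limma fit was tested on simulated data, for ATRA, Cfz and ATRA+Cfz against DMSO only.

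The members, lists and tests were chosen with earlier results of these data known. Named were all members, the gene of each list with the largest change with ATRA and with Cfz against DMSO, and the 3 genes most like SQSTM1 and GABARAPL1 among those with at least 5 FPM. Coordinates of genes are from GENCODE release 29, matched by gene ID, and promoters from RefSeq. Of 8 listed copies and antisense genes of the members, 1 was analysed here.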

Additional observations from a re-analysis of the deposited data

Results flagged for a closer look

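The ATRA effect on GABARAPL1 differed with and without the carfilzomib pulse. It was 0.74 ± 0.14 on the log2 scale for ATRA+Cfz against Cfz and 1.56 ± 0.08 for ATRA against DMSO, a difference of -0.82 ± 0.16 by a test of the difference itself (SE, limma, Benjamini-Hochberg adjusted p = 0.026). The direction held in all 14 alternatives, in which the adjusted p ran from 5.1e-04 to 0.091. The difference rests on 1 library with Cfz and 1 with ATRA+Cfz. In FPM the ATRA effect on GABARAPL1 was not smaller after the pulse, at 41.2 FPM after it and 27.3 FPM without it.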

How the results depend on the processing

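Of 870 values for the members under 17 alternative settings, 832 kept their direction and their side of the threshold, 11 newly passed it, 13 no longer did and 14 changed sign. Of 35 member differences that passed, 32 passed under every setting run. The exceptions were GABARAP for ATRA+Cfz against DMSO, GABARAPL2 for ATRA+Cfz against Cfz (with DESeq2) and the GABARAPL1 interaction (without an ATRA library). The 14 sign changes were of values near 0, none of which passed as reported. GABARAP for ATRA against DMSO (-0.00 as reported) was 0.04 with DESeq2, 0.03 both with edgeR and with median-ratio scaling, and -0.02 to 0.01 without 1 library. GABARAP for Cfz against DMSO (-0.06) was 0.01 with median-ratio scaling and 0.00 with DESeq2. OPTN for Cfz against DMSO (0.02) was -0.00 to 0.05 without 1 library. The CALCOCO2 interaction (0.02) was -0.03 with median-ratio scaling, -0.01 with DESeq2 and -0.01 to 0.05 without 1 library. DESeq2 called 2013 genes for Cfz against DMSO (3948 with limma), 3108 for ATRA+Cfz against Cfz (4818) and 2905 for ATRA+Cfz against ATRA (4884). The interaction called 364 genes, and 2 to 1986 without 1 library, of which 0 to 1 were members. The count was 2 without ATRA 1, 8 without ATRA 2, 16 without ATRA 3, 240 without DMSO 1 and 169 without DMSO 2 and 1986 without DMSO 3. Higher calls were 43.1% of interaction calls, 22.4% with median-ratio scaling and 24.0% with DESeq2. The cause was not tested. Libraries with the same number did not deviate together (r = -0.00584, -0.00206 and 0.00555), not every library correlated best with its own number, and a replicate block on that number gave 7629 genes for ATRA against DMSO (7704 without it) and 8 members. Leaving out Cfz or ATRA+Cfz is not possible, since each is the only library of its group. The lowest member value, 12.1 FPM for GABARAPL1 in DMSO 3, was far above the floor of 3 reads (0.201 FPM).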
